A study of Homo sapiens with 6 samples.

Results

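The comparison set 22RV1 cells that stably expressed a hairpin against IMPDH2 (shIMPDH2) beside 22RV1 cells that stably expressed a control hairpin labelled shLuc, over all genes. 22RV1 is an established human prostate cancer cell line of luminal type. The comparison was chosen by the library labels alone and used 4 of the 6 libraries of the series, 2 per group, and 17505 of the 17811 listed genes had enough reads to be tested. Both groups carried a hairpin, were kept in RPMI-1640 with FBS (fetal bovine serum), with no treatment given, per the labels' protocols. The remaining 2 libraries, with a hairpin against IMPA1 (shIMPA1), served only to compare the knockdowns and in the fits of all 6 libraries. The labels name 1 construct per group and do not state whether its 2 libraries are separate lines, cultures or hairpin sequences. The p-values thus reflect only how far the libraries of a group lay apart, possibly a technical spread, and loss of IMPDH2 cannot be told apart from other effects of a hairpin or of stable expression.

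IMPDH2 encodes inosine monophosphate dehydrogenase 2, which turns IMP into XMP, the committed step toward guanine nucleotides, and IMPDH1 encodes its isozyme. GMP synthetase then makes GMP, and kinases carry it to GTP and dGTP, which feed RNA and DNA synthesis, ribosome production and the GTP-binding proteins. Salvage through HPRT1 can supply GMP without IMPDH, and GMP reductase returns GMP to IMP. In prostate cells of the luminal type, androgens drive secretory genes such as the kallikreins.

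Poly(A) RNA libraries held 27405563 and 27773294 reads in the listed genes for shLuc and 20828900 and 22442454 for shIMPDH2. Values are normalized read counts, in which the authors divided each library's reads by 1 size factor. Of the genes tested, 215 lay more than 2-fold apart between the shLuc libraries and 334 between the shIMPDH2 libraries. The luminal markers listed for 22RV1 all had reads (10 of 10; 3 rose and 2 fell), and their summed value was 123730 and 122290 in shLuc and 94059 and 98826 in shIMPDH2, whereas none of the 4 blood cell and 3 endothelial markers had values here. A library of the other knockdown stood apart in a way that touches this comparison: basal keratins were near 0 in both shLuc libraries and in shIMPA1 library 1, and present in both shIMPDH2 libraries and in shIMPA1 library 2. Their values are given with the keratins.

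Fold changes were taken on log2(value + 1), so those of genes with few reads are understated, and SE is limma's moderated standard error. A gene is said to have risen or fallen where its limma adjusted p was under 0.05. That fit took the error of most genes (15719 of 17505) from the trend of variance with abundance rather than from their own libraries. For this reason each gene named below as risen or fallen also kept its call in all other fits run, 16 in number, that tested it, unless its sentence says otherwise. These fits include limma without that trend, edgeR, DESeq2 and the removal of each library in turn, and the largest adjusted p over all of them is given as the highest adjusted p. A value alone in brackets after a gene is its log2 fold change. Each count of list members that rose or fell is to be read beside the 17.5% and 19.1% of all genes tested that did so.

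The targeted transcript was moderately lower in the knockdown. IMPDH2 (ENSG00000178035; GRCh38 chromosome 3, 49024325 to 49029408, minus strand) stood at 4269.9 and 5032 in the shLuc libraries and 2932 and 3166 in the shIMPDH2 libraries. Both knockdown libraries lay below both controls, at 0.657 times the control (log2 fold change -0.61, SE 0.11, limma adjusted p = 5.51e-07, highest adjusted p 0.0398). In the shIMPA1 libraries the transcript was at 4435 and 5055, so that shIMPDH2 was also lower than the other knockdown (log2 difference -0.64, limma adjusted p = 0.00313). In these bulk samples fewer cells with a transcript and less of it per cell cannot be told apart.

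The isozyme IMPDH1 was slightly higher, at 2188 and 2500.1 in the shLuc libraries and 2779 and 2913 in the shIMPDH2 libraries. Its groups did not overlap, but its call (log2 fold change 0.28, SE 0.11, limma adjusted p = 0.0263) was lost without a mean-variance trend (adjusted p 0.169), with all 6 libraries, with a block on the replicate number, without shLuc library 1 and without either shIMPDH2 library. Without shLuc library 1 the value was 0.19, and without shLuc library 2 it was 0.38.

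Around the target, the guanine nucleotide enzymes split. Of 14 tested, 5 rose and 4 fell, beside 17.5% and 19.1% of all genes tested, and the median log2 fold change was -0.04 against -0.01 over all genes. The rises numbered 3 without shLuc library 2 or shIMPDH2 library 1 or shIMPDH2 library 2, and the falls 2 without shLuc library 1 or shIMPDH2 library 1. Only GMPR among the rises and IMPDH2 and NME4 among the falls kept their calls in every fit. GMPR, a GMP reductase that converts GMP back to IMP, stood at 79.2 and 110.3 in the shLuc libraries and 226 and 202 in the shIMPDH2 libraries. Its level more than doubled with no overlap (log2 fold change 1.19, SE 0.17, highest adjusted p 0.0197) and was higher than in shIMPA1, where it was at 81.7 and 135 (log2 difference 1.02, limma adjusted p = 0.0105). NME4, a mitochondrial nucleoside diphosphate kinase, was at 93.6 and 76.1 in the shLuc libraries and 50.8 and 39.4 in the shIMPDH2 libraries. It fell with no overlap (log2 fold change -0.90, SE 0.23, highest adjusted p 0.0468).

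Below IMPDH on the direct route, GMP synthetase was not called and guanylate kinase was higher. GMPS, GMP synthetase, had overlapping groups at 2442 and 2718 in the shLuc libraries and 2656 and 2456 in the shIMPDH2 libraries (log2 fold change -0.01, SE 0.11). GUK1, the kinase from GMP to GDP, went from 6542 and 5299 to 8549 and 9420.5 (log2 fold change 0.61, SE 0.12, limma adjusted p = 3.47e-06), a call lost without the trend (adjusted p 0.0506). The abundant nucleoside diphosphate kinases NME1 and NME2 were not called, with log2 fold changes of -0.21 and -0.23 and overlapping groups. The smaller calls of the salvage enzyme HPRT1 (-0.33), NME7 (-0.34), NME3 (0.32) and NME6 (0.37) were each lost in the fit without the trend and on leaving out at least 1 library. The value of NME3 was 0.12 without shLuc library 2 and 0.53 without shLuc library 1. GMPR2, the second GMP reductase, and PNP, which cleaves guanosine and inosine, did not pass (0.23 and -0.06).

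**Figure D1:**
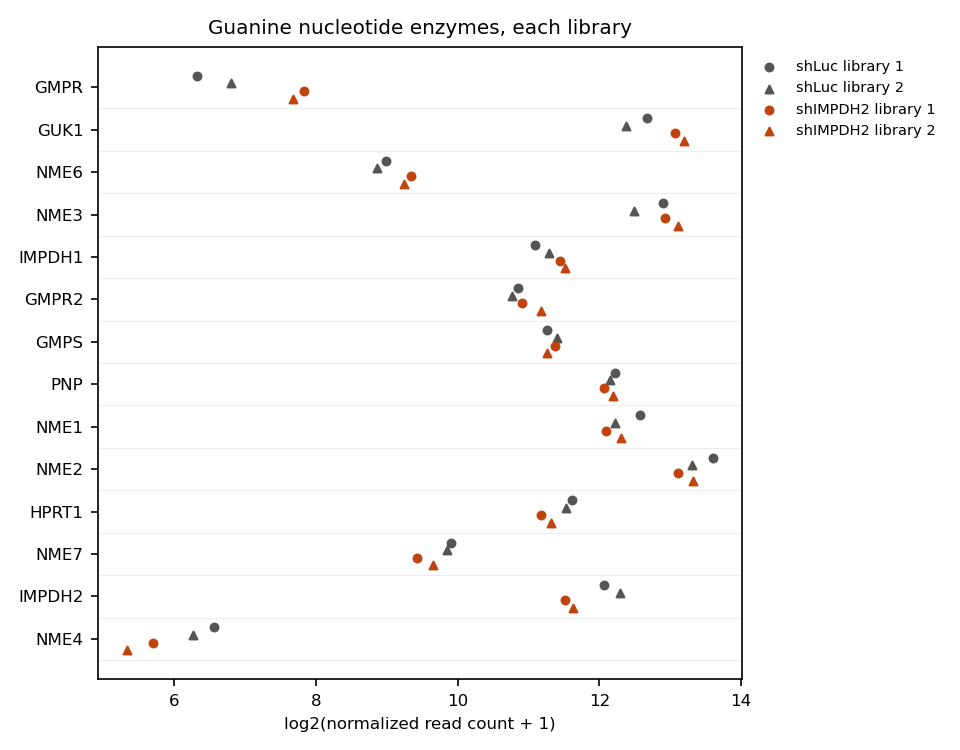
Guanine nucleotide enzymes in each library on the log2(normalized read count + 1) scale, ordered by log2 fold change (circles library 1, triangles library 2; grey shLuc, orange shIMPDH2). GMPR at the top shows the widest separation upward and NME4 at the bottom the widest downward, with IMPDH2 just above it; the groups of GMPS, PNP, NME1 and NME2 overlap.

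Neighbouring nucleotide pathways changed in single enzymes. The list of purine synthesis to IMP and AMP also holds deaminases of AMP and adenosine. Of its 15 genes, 2 rose and 5 fell (median 0.02), beside 17.5% and 19.1% of all genes called in each direction. In every fit 2 falls held, both of them of deaminases and not of synthesis enzymes. The rises numbered 0 without shLuc library 1 or shIMPDH2 library 1 or shIMPDH2 library 2. Those that held were AMPD3, an AMP deaminase, which went from 123 and 148 to 78.6 and 66.4 (log2 fold change -0.89, SE 0.19), and adenosine deaminase ADA, which went from 236 and 189.9 to 131 and 127 (-0.71, SE 0.16). ADA was also lower than in shIMPA1 (log2 difference -0.84, limma adjusted p = 0.00328). In the pyrimidine and deoxynucleotide list 4 of 18 rose and 4 fell (22.2% each), close to the shares of all genes. The rises numbered 1 without shIMPDH2 library 1 or shIMPDH2 library 2 and 2 without shLuc library 1, and the falls 1 without shIMPDH2 library 1 or shIMPDH2 library 2. CTPS1, a GTP-activated CTP synthase, kept its call in every fit. It went from 1806 and 1956 to 1216 and 1252 (log2 fold change -0.61, SE 0.11).

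Most ribosome genes were not called, and few rose. Of 52 cytosolic ribosomal protein genes none rose and 13 fell, with a median of -0.28; the falls are 25.0%, beside 19.1% of all genes. That count was 20 with DESeq2, 1 without shIMPDH2 library 1, 7 without shLuc library 1 or shIMPDH2 library 2, and 3 without the trend. RPLP2, an acidic stalk protein, fell in every fit, from 16322 and 17047 to 11033 and 10722 (log2 fold change -0.62, SE 0.13). Among 35 genes of RNA polymerase I and nucleolar assembly, 2 rose and 5 fell (3 without shLuc library 1 or shIMPDH2 library 1 or shIMPDH2 library 2), below the shares of all genes. FBL, the fibrillarin methyltransferase of the nucleolus, went from 8022 and 8036 to 5063 and 5595 (-0.59, SE 0.12). In the MYC network the driver MYC went from 4659 and 5206 to 3157 and 3116 (log2 fold change -0.65, SE 0.11, highest adjusted p 0.0243), MYCL fell too (-0.76) and the antagonist MXD4 rose (0.68). Both MYC levels in shIMPDH2 were below both controls.

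Across all genes, 3071 rose and 3337 fell, together 36.6% of those tested. More than 2-fold changes were fewer and mostly downward, with 406 rises (2.32%) and 982 falls (5.61%), and 70 and 204 genes passed 4-fold. Groups of 11627 genes (66.4%) did not overlap, and 46 called genes had overlapping groups. Without the trend, 1188 of these rises (6.79%) and 1790 of these falls (10.2%) kept their call, and 971 rises (5.55%) and 1263 falls (7.22%) kept it in every fit. The smallest called change was 0.25 on the log2 scale, and the median size among called genes was 0.55. Of the genes called, 2247 (35.1%) also differed between shIMPDH2 and shIMPA1, in a comparison that called 26.1% of its genes (4623). Leaving out 1 library moved that count to 1598 without shIMPDH2 library 2, 2019 without shIMPDH2 library 1 and 7086 without shIMPA1 library 1, so the differences from shIMPA1 given for single genes rest on those libraries too.

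**Figure D2:**
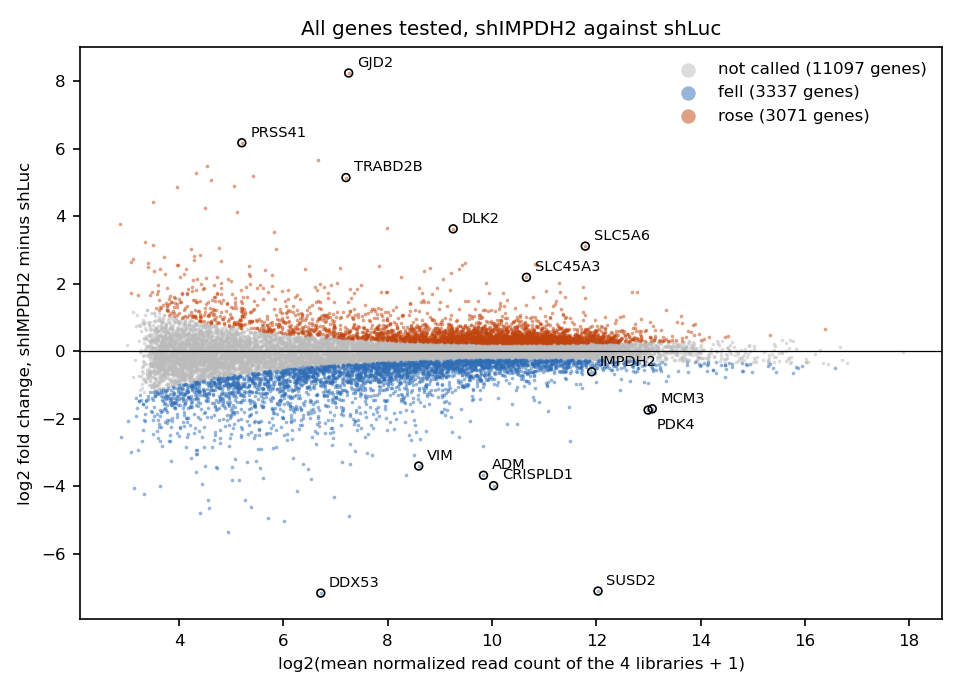
Every gene tested, with the log2 fold change (shIMPDH2 minus shLuc) against the log2 mean normalized read count of the 4 libraries (grey not called, orange rose, blue fell). GJD2, PRSS41, TRABD2B and DLK2 lie highest among the labelled genes, with SLC5A6 at higher abundance, SUSD2 and DDX53 lie lowest, and IMPDH2 itself lies close to the line of no change.

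The largest rises among abundant transcripts included several membrane and secreted proteins. DLK2, a membrane protein of the Delta-like family, was at 96.3 and 84.9 in the shLuc libraries and 1126 and 1135 in the shIMPDH2 libraries. Both knockdown libraries were more than 10-fold above both controls (log2 fold change 3.63, SE 0.13, highest adjusted p 0.000656), and shIMPA1 lay far below them at 182 and 216. SLC5A6, which imports biotin, pantothenate and lipoate, went from 689 and 775 to 6356 and 6333 (3.12). The receptor tyrosine phosphatase PTPRR (from 209 and 186 to 1155 and 1292, 2.62), the membrane carbonic anhydrase CA12 (from 494 and 541 to 3158 and 3103, 2.60) and MARCKSL1, an actin-binding kinase substrate (from 496 and 583 to 3267 and 3127, 2.57), followed. ZG16B, a secreted lectin, was at 203 and 203 in the shLuc libraries and 1087 and 1136 in the shIMPDH2 libraries, and its replicate values nearly coincided within each group (2.45). PSPH, the phosphatase that completes serine synthesis, went from 1434 and 1491 to 5450.3 and 5432 (1.90). A pseudogene copy could share reads, so its size is uncertain. PPFIBP2 (2.55) and CFAP69 (1.78) complete the rises that are not androgen genes.

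All 9 of these transcripts were also higher than in the other knockdown. The log2 difference between shIMPDH2 and shIMPA1 was 2.85 for CA12 (limma adjusted p = 9.22e-09), 2.84 for SLC5A6 (9.22e-09), 2.51 for DLK2 (1.86e-07), 2.22 for PTPRR (2.1e-07) and 1.59 for PSPH (0.0019). ZG16B differed least, by 0.46 (limma adjusted p = 0.0301), with shIMPA1 libraries at 724 and 906.

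Among abundant falls, SUSD2, whose product spans the membrane and carries a sushi domain, was the largest. It went from 7462 and 9183 to 56.6 and 61.9 (log2 fold change -7.10, SE 0.11, highest adjusted p 0.000308). ADM, the vasodilator peptide adrenomedullin, stood at 1649 and 1743 in the shLuc libraries and 125 and 139 in the shIMPDH2 libraries. Both knockdown libraries were more than 10-fold below both controls, and shIMPA1 overlapped them at 141 and 121 (log2 difference 0.02, limma adjusted p = 0.953). CRISPLD1, a secreted cysteine-rich protein, went from 1984 and 1953 to 126 and 121 (-3.98). The actin bundler VIL1 (from 1529 and 1651 to 235 and 219, -2.80), the vesicle tether SYTL2 (from 4814 and 5140.1 to 821 and 758, -2.65) and the mucin MUC13 (from 970.3 and 1276 to 201 and 183, -2.53) fell as well. So did the potassium channel KCNJ8 (-2.15), the synapse organizer CBLN2 (-2.07), LDOC1 (-2.16), the long noncoding RNA LINC01694 (-2.38) and GUCY1A2, a subunit of the guanylate cyclase that makes cyclic GMP from GTP (from 3397 and 3238 to 1033 and 902, -1.78).

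PDK4, the kinase that shuts off pyruvate dehydrogenase, lay on opposite sides of the control in the knockdowns. It was at 11636 and 13495 in the shLuc libraries and 3816 and 3683 in the shIMPDH2 libraries (log2 fold change -1.74, SE 0.12, highest adjusted p 0.0029). In shIMPA1 it was at 28779 and 33455, and the difference between the knockdowns was -3.05 on the log2 scale (limma adjusted p = 1.1e-08). All 6 libraries fall into 3 separate levels by group.

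A few genes went between few or no reads and clear expression. GJD2, the neuronal gap junction protein connexin 36 (ENSG00000159248; GRCh38 chromosome 15, 34751032 to 34754965, minus strand), had 0 reads in both shLuc libraries and values of 293 and 313 in shIMPDH2, from 532 reads, at least 228-fold higher by a floor of 3 reads over the group. PRSS41, a serine protease gene (ENSG00000215148; GRCh38 chromosome 16, 2798485 to 2805302, plus strand), had 0 reads in shLuc and 126 in shIMPDH2 (65.8 and 77.6), at least 53.9-fold higher. In shIMPA1, GJD2 again had no read in either library and PRSS41 stood at 0 and 0.863. In the other direction DDX53, a germline RNA helicase, went from 469 reads to 1, a ratio of 370 (95% counting interval 65.2 to 14453). The transcription cofactor EYA2 went from 132 reads to 1, a ratio of 101 (95% counting interval 18.1 to 4090), and the G protein subunit GNG11 from 100 to 2, a ratio of 39.5 (10.5 to 326). EYA2 and GNG11 were chosen after their values were seen. Bounds and intervals cover counting error only. Without either shIMPDH2 library, GJD2 and PRSS41 missed the minimum level and were not tested.

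Many androgen-induced genes rose in the knockdown. Of 42 tested, 21 rose and 8 fell, beside 17.5% and 19.1% of all genes tested, with a median log2 fold change of 0.32 against -0.01. Of these calls, 17 of the rises and 3 of the falls held in every fit, where all genes gave 5.55% and 7.22%. SLC45A3, the prostate transporter prostein, was at 592 and 568 in the shLuc libraries and 2574 and 2739 in the shIMPDH2 libraries. Both shIMPDH2 libraries exceeded the controls more than 4-fold (log2 fold change 2.19, SE 0.11, highest adjusted p 0.00163), and shIMPA1 was lower than either, at 407 and 390.0. The membrane serine protease TMPRSS2 was at 351 and 402 in the shLuc libraries and 1482 and 1549.8 in the shIMPDH2 libraries. It rose with no overlap (2.01, SE 0.11, highest adjusted p 0.00322), and the shIMPA1 libraries, at 816 and 1479, spanned a wide range, so that no difference between the knockdowns was called (limma adjusted p = 0.245). PMEPA1, an androgen-induced regulator of SMAD signalling, went from 5817 and 6643 to 14794 and 14151 (1.22), and GNMT, which methylates glycine, from 112 and 116.4 to 371 and 405 (1.76).

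The secreted kallikreins moved together. KLK3, which encodes prostate-specific antigen, was at 284 and 273 in the shLuc libraries and 500.2 and 566 in the shIMPDH2 libraries. It rose to 1.91 times the control with no overlap (log2 fold change 0.93, SE 0.12, highest adjusted p 0.0109) and was higher than in shIMPA1 (386 and 274, log2 difference 0.71, limma adjusted p = 0.00829). Its neighbours on chromosome 19, KLK2 (from 901 and 732 to 1564 and 1668, 0.99) and KLK4 (from 3254 and 3793 to 5729 and 5499.8, 0.68), rose as well. For KLK4 the shIMPA1 level was higher still, 8929 and 8358 (log2 difference -0.62, limma adjusted p = 0.00299). Kallikrein genes are close relatives, and reads of KLK2 and KLK3 that match both would not have been counted as unique.

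Further members of the androgen-induced list rose. The folate hydrolase FOLH1 (prostate-specific membrane antigen) went from 9172 and 9209 to 15595 and 17107 (0.83), and the metalloreductases STEAP1 (0.82) and STEAP2 (0.60) rose. So did the zinc-binding glycoprotein AZGP1 (0.94) and C1orf116 (1.03). Against that direction, UGT2B15, which conjugates androgens for removal, went from 95.4 and 82.3 to 38.1 and 27 (-1.44) and the steroid-responsive TSC22D3 from 563 and 652 to 351 and 328 (-0.83). These list members other than GNMT, PMEPA1, SLC45A3, SPDEF, TMPRSS2 and KLK3 were named after their values were seen. The plot of the list shows that the rises cover low and high abundance alike.

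**Figure D3:**
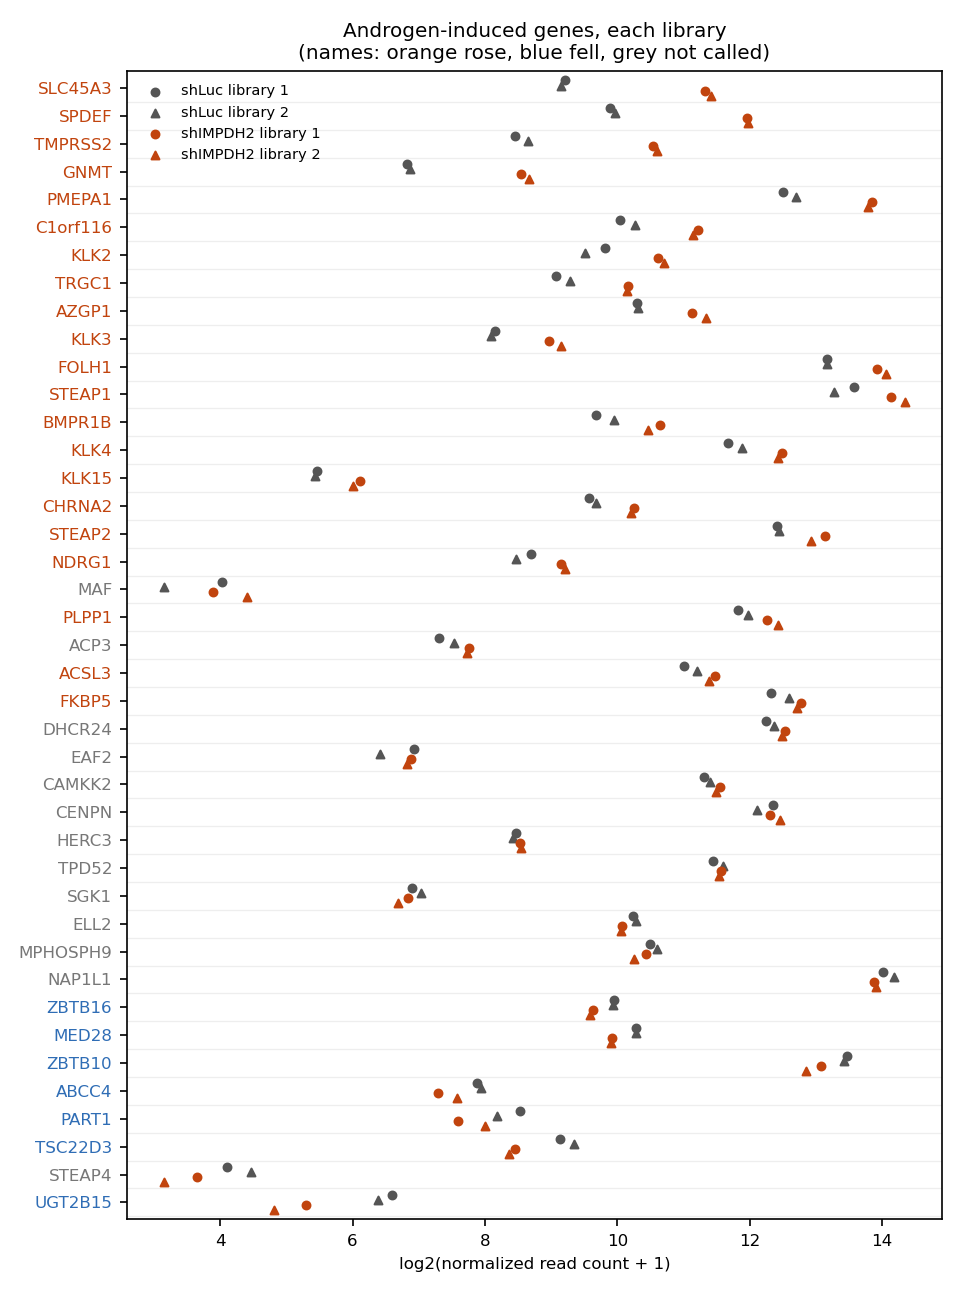
Androgen-induced genes in each library on the log2(normalized read count + 1) scale, ordered by log2 fold change (circles library 1, triangles library 2; grey shLuc, orange shIMPDH2; gene names orange where the gene rose, blue where it fell and grey where it was not called). SLC45A3, SPDEF and TMPRSS2 stand at the top with both shIMPDH2 libraries well to the right of the controls, and UGT2B15 at the bottom with both to the left (1 list member is not drawn).

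The transcription factors that set luminal identity moved both ways. The pioneer factor FOXA1 (0.09) and the prostate homeobox factor HOXB13 (0.17) did not pass, and both were named after their values were seen. Among 17 such factors, 5 rose, all of them in every fit, and 6 fell, 4 of them in every fit. SPDEF, an ETS factor of secretory epithelium, was at 944 and 997 in the shLuc libraries and 3967 and 4015 in the shIMPDH2 libraries. It rose to 4.11 times the control with no overlap (log2 fold change 2.04, SE 0.11, highest adjusted p 0.00182) and exceeded shIMPA1 by 1.40 (limma adjusted p = 2.22e-06). CREB3L4, a membrane-bound factor of prostate secretory cells, went from 1416 and 1256 to 3799.5 and 4309 (1.60), and GRHL2, which maintains epithelial junction genes, from 1403 and 1535 to 3010.5 and 2876 (1.00). Falls were seen in the ETS factors ETV1 (from 907 and 1019 to 524 and 462, -0.96) and ETV4 (from 726 and 841 to 344 and 322, -1.23), the latter a call lost in the fit of all 6 libraries.

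To show a promoter of this group, the 250 bases before the KLK3 start are printed (RefSeq, GRCh38.p14), with AGAACA, the core of the androgen response element, and TTTATA, which is the TATA motif read on the other strand, in capitals.
KLK3 (chr19:50854665-50854914, plus strand): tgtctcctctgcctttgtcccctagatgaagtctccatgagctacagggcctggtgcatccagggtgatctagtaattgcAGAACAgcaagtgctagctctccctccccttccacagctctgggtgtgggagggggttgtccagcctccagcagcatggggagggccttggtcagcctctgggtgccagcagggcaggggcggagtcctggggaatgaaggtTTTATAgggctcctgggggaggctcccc
AGAACA begins 170 bases before the start. It was searched on both strands in windows of 250 bases before to 50 after the start, and occurred in 3 of the 15 promoters of risen androgen-induced genes that had a sequence and in 1076 of 12205 promoters of all tested genes (8.82%). Among all genes changed more than 2-fold, it occurred in 31 of 260 promoters that rose (11.9%) and 78 of 655 that fell (11.9%). In the 250 bases before the start of SLC45A3, not printed, neither motif was found on either strand. All such matches are of letters, and no binding was measured.

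Several transcripts of replication-dependent histone genes rose. These genes supply histones during DNA replication and most of their RNA normally lacks a poly(A) tail, so a poly(A) library sees only the tailed part. Of 32 tested out of 55 listed, 12 rose and 1 fell, with a median log2 fold change of 0.45, and 8 rises held in every fit. H2AC6 was at 203 and 193 in the shLuc libraries and 855 and 892 in the shIMPDH2 libraries. Both knockdown libraries lay over 4-fold above both controls (log2 fold change 2.14, SE 0.12, highest adjusted p 0.00163), and above shIMPA1, at 232 and 387 (log2 difference 1.54, limma adjusted p = 0.000329). H2BC12 went from 238 and 280.0 to 893 and 940.2 (1.82), H3C6 from 38.7 and 48.1 to 173 and 136 (1.81) and H2BC21 from 224 and 243 to 652 and 634 (1.46). The linker histone H1-2 went from 203 and 235 to 488 and 539 (1.23) and also differed from shIMPA1 (1.06, limma adjusted p = 0.000272). In H2BC12 and H3C6 the second shIMPA1 library was high too, with 315 and 633 and 91.5 and 189, and no difference between the knockdowns was called (limma adjusted p = 0.0631 and 0.642). Histone genes are near-identical copies, so reads shared between them may be missing or misplaced.

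To show promoters of histone genes that rose, the 250 bases before the start of 3 of them are printed (RefSeq, GRCh38.p14). The TATA motif (TATAAA, or TTTATA for the other strand) and the CCAAT box (ATTGG for the other strand) are in capitals.
H2AC6 (chr6:26123922-26124171, plus strand): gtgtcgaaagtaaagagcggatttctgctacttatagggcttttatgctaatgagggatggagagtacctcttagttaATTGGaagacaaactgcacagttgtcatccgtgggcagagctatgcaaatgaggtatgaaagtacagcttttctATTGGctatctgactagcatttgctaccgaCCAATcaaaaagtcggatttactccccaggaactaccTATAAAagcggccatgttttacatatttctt
H2BC12 (chr6:27146856-27147105, minus strand): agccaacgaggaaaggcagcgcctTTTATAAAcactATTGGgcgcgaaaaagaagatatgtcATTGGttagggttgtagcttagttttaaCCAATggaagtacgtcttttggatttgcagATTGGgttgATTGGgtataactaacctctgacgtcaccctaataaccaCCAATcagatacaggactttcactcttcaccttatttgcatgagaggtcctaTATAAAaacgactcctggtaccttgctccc
H2BC21 (chr1:149886683-149886932, minus strand): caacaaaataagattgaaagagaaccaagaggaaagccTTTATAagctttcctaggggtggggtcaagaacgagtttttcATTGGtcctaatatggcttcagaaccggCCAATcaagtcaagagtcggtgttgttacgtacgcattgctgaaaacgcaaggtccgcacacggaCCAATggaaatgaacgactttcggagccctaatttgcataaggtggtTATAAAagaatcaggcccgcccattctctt
TATAAA lies 31, 30 and 30 bases before the start and CCAAT 68, 82 and 77. The same stretch of H1-2, which also rose, is not printed: it held CCAAT 57 bases before the start and TATAAA on neither strand. In windows of 300 bases, TATAAA on either strand was found in 9 of 12 histone promoters that rose (75.0%) and in 12 of 18 that were not called (66.7%), beside 5.92% of all 12205 promoters. CCAAT on either strand was found in 11 of 12 and 14 of 18, beside 36.6% of all. Whether these shares differed between risen and uncalled histones was not tested. Over all genes that rose more than 2-fold, histones included, 41 of 260 promoters (15.8%) held TATAAA, and 59 of 655 (9.01%) of those that fell more than 2-fold.

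About as many genes of the cell cycle fell as were not called, and few of those calls were stable. Of 38 genes of S phase entry and DNA replication, 1 rose and 19 fell, with a median of -0.27, and of 34 genes of G2 and mitosis 1 rose and 16 fell (median -0.25). Without the trend these falls were 6 and 3, and with all 6 libraries 2 and 0, so most of these calls were lost in either fit. The falls numbered 10 without shIMPDH2 library 1 in the first list and 9 without shIMPDH2 library 1 or shIMPDH2 library 2 in the second. In every fit 2 and 0 held. MCM3, a subunit of the replicative helicase, had the largest change of the list. It stood at 12998 and 13375 in the shLuc libraries and 3936 and 4167 in the shIMPDH2 libraries. The groups lay more than 3-fold apart (log2 fold change -1.70, SE 0.12, highest adjusted p 0.00249), and shIMPA1 was at a like level, 4732 and 4804 (log2 difference -0.24, limma adjusted p = 0.167). CDK6, the kinase that opens G1, went from 1137 and 1164 to 472 and 375 (-1.45) and was lower than in shIMPA1 (-1.02, limma adjusted p = 0.000156). As wholes, both lists had lower medians in shIMPA1, at -1.23 and -1.08 against shLuc in the fit of all 6 libraries. Between the knockdowns 18 of the 38 and 1 of the 34 genes differed, beside 26.1% of all genes in that comparison. The replication factor GINS1 (-0.80), the repressor E2F7 (-0.80) and the mitotic kinase AURKB (-0.87) fell, but their calls were lost with all 6 libraries. Among 33 genes of homologous recombination and Fanconi repair none rose and 10 fell (6 without shLuc library 1), and none kept its call in every fit.

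Mesenchymal, matrix and YAP-related genes were lower in the main. Of 19 mesenchymal markers none rose and 13 fell, with a median of -1.03, and 8 held in every fit. VIM, the intermediate filament vimentin, was at 658 and 753 in the shLuc libraries and 61.2 and 70.9 in the shIMPDH2 libraries. It fell more than 9-fold with no overlap (log2 fold change -3.40, SE 0.14, highest adjusted p 0.00113), and shIMPA1 was lower still, at 40.4 and 43.1. The adhesion and clotting glycoprotein THBS1 went from 584 and 585 to 217 and 192 (-1.51), the collagen crosslinker LOX from 336 and 342 to 120.1 and 97.8 (-1.64) and the fibrillar collagen COL5A1 from 167 and 146 to 50.8 and 41.6 (-1.74). The collagen and matrix list, which shares LOX with these, had 2 of 28 members up and 19 down (median -0.84). LUM, the proteoglycan lumican, went from 187 and 157 to 11.6 and 11.2 (-3.80), COL12A1 from 127 and 109 to 23.1 and 22.5 (-2.32) and the proteoglycan SPOCK2 from 1202 and 1210.2 to 560.3 and 522 (-1.16), while its relative SPOCK1 rose from 1600.3 and 1928 to 5696 and 4859.8 (1.58).

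Of 6 stromal markers 5 had values, and 3 of 4 tested fell. Their summed value went from 585 and 623 in shLuc to 281 and 277 in shIMPDH2. The 3 that fell, COL1A1, COL3A1 and LUM, are themselves collagen or matrix genes, so they add nothing separate to the falls above. COL3A1 lost its call with DESeq2, with all 6 libraries and without shLuc library 2, and was not tested with a filter at 50. The other 2 falls held in every fit. Whether stromal-type cells had a part in the falls was not tested.

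The coactivators YAP1 (from 1317 and 1450.0 to 908 and 868, -0.64) and WWTR1, which encodes TAZ (from 270.0 and 280.0 to 128 and 129, -1.09), fell. Of 23 genes in the YAP and TAZ list, 3 rose and 14 fell (median -0.64), 1 and 10 in every fit. The planar polarity gene FJX1 went from 99.9 and 81.4 to 21.9 and 27 (-1.85) and the stress gene GADD45B from 549 and 574 to 276 and 301 (-0.96). F3, the clotting initiator tissue factor, went the other way, from 129 and 145 to 769 and 751 (2.47), and CCN1 fell (-1.03), both calls lost with all 6 libraries. The shIMPA1 libraries lay far apart in both genes, at 731 and 2449.5 for F3 and 226 and 84.6 for CCN1. Of 29 caveolin, cavin and actin genes, 13 fell and 5 rose (rises 2 without shIMPDH2 library 1 and 3 without shIMPDH2 library 2). The falls included CAV2 (from 64.8 and 85.8 to 11.6 and 24.7, -2.07), the coat protein CAVIN1 (-1.28), the myosin light chain MYL9 (from 203 and 212 to 45.1 and 33.7, -2.38) and filamin C (FLNC, -1.56). MYL9 and FLNC were also lower than in shIMPA1 (-1.78 and -1.46, limma adjusted p = 5.35e-05 and 9.28e-06). YAP1 was named after its values were seen.

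Epithelial markers split, 7 of 24 up and 3 down, with a median of 0.09 (rises 4 without shLuc library 1). KRT19, a simple-epithelium keratin, went from 952 and 939.8 to 1914 and 2118 (1.09), whereas KRT8, another such keratin, fell from 71625 and 63788 to 40650 and 46452 (-0.64). KRT8, also 1 of the luminal markers, was named after its values were seen and kept its call in every fit. The junction scaffold TJP1 rose (0.71) and the epithelial repressor OVOL1 fell (-1.12). Integrins and laminins fell in 9 and rose in 4 of 23 cases (rises 2 without shLuc library 1 or shIMPDH2 library 1). The laminin chains moved apart, LAMB1 from 829.9 and 934 to 417 and 429 (-1.06) and LAMA3 from 26.1 and 28.9 to 94.7 and 99 (1.78).

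**Figure D4:**
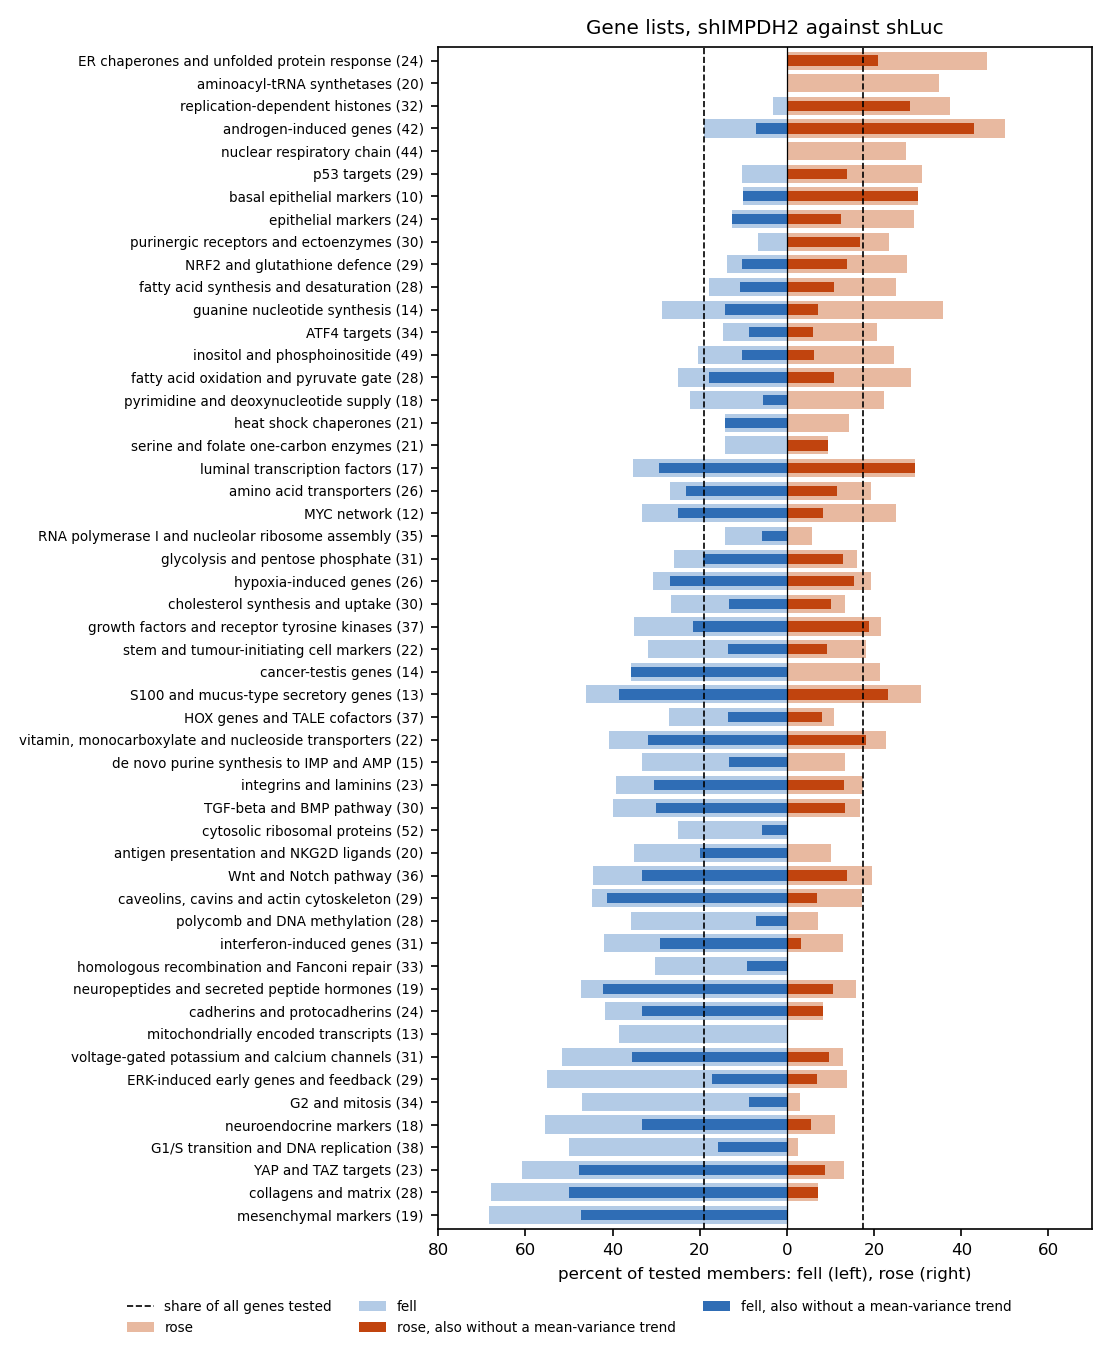
Gene lists with at least 10 tested members (number in brackets), with the percent of members that fell (left, blue) and rose (right, orange); the dark inner bars count only calls also made without a mean-variance trend, and dashed lines mark the shares of all genes tested, 19.1% and 17.5%. Mesenchymal, matrix and YAP lists reach furthest left and the unfolded protein response, histone and androgen-induced lists furthest right, while the pale bars of cell cycle, ribosome and respiratory lists have a short dark core or none.

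More neuroendocrine markers and secreted peptides fell than rose. Of 18 neuroendocrine markers 2 rose and 10 fell (median -0.48), 1 and 5 in every fit. SRRM4, the neural splicing factor, went from 4584 and 4645 to 2316 and 2032 (-1.09), the granule protein chromogranin A (CHGA) from 540.0 and 596 to 261 and 298 (-1.02) and the Notch ligand DLL3 from 478 and 449 to 192 and 205 (-1.22). DLL3 was at 558 and 616 in shIMPA1, above both other groups (log2 difference -1.56, limma adjusted p = 5.35e-06). The vesicle protein SYT4 rose, from 2094 and 2131 to 4744 and 4797 (1.18). Calcitonin (CALCA) fell from 253 and 233 to 60.1 and 73.1 (-1.86). It shares sequence with its relative CALCB, so its reads may be split. In the peptide hormone list 9 of 19 fell, 3 rose and the rest were not called (median -0.19). Beside ADM, falls were seen in neuromedin B (NMB, from 608 and 605 to 43.9 and 50.6, -3.66) and stanniocalcin 1 (STC1, from 286 and 277 to 30.0 and 23.6, -3.35). Among the rises neuropeptide Y (NPY) went from 36.9 and 42.9 to 97 and 109 (1.35), a gene named after its values were seen.

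Signalling genes of the Wnt and Notch pathways moved both ways, with 7 of 36 up and 16 down, 4 and 11 in every fit (rises 3 without shIMPDH2 library 2 and 4 without shIMPDH2 library 1). TRABD2B, a membrane protease that inactivates Wnt proteins, was at 6.3 and 7.88 in the shLuc libraries and 304 and 267 in the shIMPDH2 libraries. It was low in the controls and clearly present in both knockdown libraries, and it missed the minimum level without either of these (log2 fold change 5.15, SE 0.25, highest adjusted p 0.00052). NOTUM, an enzyme that strips the lipid from Wnt proteins, went from 354 and 341 to 77.4 and 96.7 (-1.99) and the noncanonical ligand WNT5A from 122 and 144 to 34.7 and 23.6 (-2.17). In the TGF-beta and BMP list 5 of 30 rose and 12 fell, the latter 7 without shLuc library 2 and 7 with all 6 libraries, beside 17.5% and 19.1% of all genes. The ligand BMP2 (from 141 and 153 to 47.4 and 37.1, -1.79) and the receptor BMPR1A (from 2105 and 2123 to 1049 and 1004, -1.04) fell, and the receptor BMPR1B (0.74) and the target ID2 (0.58) rose.

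Early genes induced by ERK signalling were lower in 16 of 29 cases and higher in 4, with a median of -0.41. Without the trend or with all 6 libraries the falls were 6, and the rises were 2 without shLuc library 1 or shIMPDH2 library 1 or shIMPDH2 library 2. JUNB (from 3002 and 2707 to 1709 and 1954, -0.64) and MYC were the 2 that fell in every fit, and JUN (-0.96) and EGR1 (-0.68) lost their calls with all 6 libraries. EGR1 also lost its call without the trend, and its value was -0.45 without shIMPDH2 library 2.

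Genes of the endoplasmic reticulum response were higher or not called, with 11 of 24 risen, none fallen and a median of 0.28. The counts were 5 without the trend and with all 6 libraries and 7 without shIMPDH2 library 1 or shIMPDH2 library 2, and 4 rises held in every fit. These were SEL1L, an adaptor of the degradation machinery (from 1371 and 1431 to 2591 and 2379, 0.83), its partner HERPUD1 (from 1420.3 and 1698 to 2779 and 2689, 0.82), the transcription factor XBP1 (from 1955 and 2369 to 3165 and 3329, 0.59) and the co-chaperone DNAJC3 (0.49). DNAJB9 rose (0.99) but lost its call with all 6 libraries. In the p53 list 9 of 29 rose and 3 fell (31.0% and 10.3%, beside 17.5% and 19.1% of all genes, median 0.06). The cytokine GDF15 went from 932 and 949 to 1778 and 2084 (1.03), the p53 ligase MDM2 from 1103 and 1053 to 1886 and 1581 (0.68) and the cyclin kinase inhibitor CDKN1A from 3425 and 3448 to 4823 and 4973 (0.51). In shIMPA1, GDF15 was far higher, at 10947 and 12117 (log2 difference -2.58, limma adjusted p = 1.84e-08).

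ATF4 targets were near the share of all genes, 7 of 34 up (3 without shIMPDH2 library 2 and 4 without shLuc library 1) and 5 down, and DDIT3, whose call was lost without the trend (0.56, adjusted p 0.0598), was lower than in shIMPA1 (log2 difference -2.04, limma adjusted p = 4.84e-07). DDIT4, an inhibitor of mTORC1, fell from 1392 and 1294 to 677 and 838 (-0.83). Aminoacyl-tRNA synthetases rose in 7 of 20 cases, but this count was 0 without shIMPDH2 library 2 or without the trend, 2 without shLuc library 1 and 3 without shIMPDH2 library 1. Antioxidant genes under NRF2 had 8 of 29 up and 4 down (falls 2 without shLuc library 1). The ferritin light chain FTL (from 4882 and 5079 to 9445 and 10082, 0.97), heme oxygenase HMOX1 (from 111 and 115.5 to 226 and 236, 1.03) and GCLC, which starts glutathione synthesis (0.58), rose. The steroid-converting AKR1C3 fell from 117 and 123 to 31.2 and 45 (-1.65). Of 21 heat shock chaperones 3 rose and 3 fell (14.3% each), below the shares of all genes. The falls of HSPB8 (from 567 and 665 to 213 and 283, -1.32), HSPA1B (-0.80) and HSPA1A (-0.85) held in every fit, the last pair being near-identical copies.

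In lipid metabolism, cholesterol genes fell in 8 and rose in 4 of 30 cases (median -0.14), 26.7% and 13.3% beside 19.1% and 17.5% of all genes. The falls were 5 without shLuc library 2 or shIMPDH2 library 1 and 4 without the trend. Squalene synthase FDFT1 went from 20981 and 21813 to 13568 and 14800 (-0.59) and the cholesterol exporter ABCG1 rose from 35.1 and 35.9 to 104 and 118 (1.62). The acyl-CoA synthetases went apart, with ACSL1 from 1584 and 1771 to 3578 and 3588 (1.10) and ACSL4 from 497 and 506 to 147 and 155 (-1.73). FADS2, a desaturase of polyunsaturated fatty acids, rose from 929.8 and 1056 to 1843 and 1941 (0.93) and stood above shIMPA1 by 2.06 (limma adjusted p = 0.00174), while its chromosome 11 neighbour FADS1 fell (-0.81), a call lost with all 6 libraries.

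At the gate between glycolysis and mitochondria, the pyruvate carrier MPC2 went from 9541 and 7489.7 to 14193 and 16551 (0.86) while PDK4 fell as above, and ECI2, a fatty acid oxidation isomerase, rose from 1113 and 1142 to 1912 and 2145 (0.84). Glycolysis and pentose phosphate genes had 5 of 31 up and 8 down (16.1% and 25.8%, beside 17.5% and 19.1% of all genes). The lactate exporter SLC16A3 (from 2729.9 and 2514 to 883 and 1036, -1.45) and phosphofructokinase PFKP (from 477 and 555 to 159 and 188, -1.57) fell, and the glucose importer SLC2A1 (from 706 and 766 to 1121 and 1211, 0.66) and hexokinase HK1 (from 2318 and 2852 to 4074 and 4042, 0.66) rose. Nuclear genes of the respiratory chain rose in 12 of 44 cases (median 0.19) and the 13 mitochondrially encoded transcripts fell in 5 (median -0.27), but neither list had a call left without the trend. Without shIMPDH2 library 2 the counts were 1 and 0, and without shLuc library 1 they were 7 and 3 and without shLuc library 2 they were 7 and 2. Amino acid transporters included rises of SLC36A1 (from 397 and 486 to 1366 and 1135, 1.50) and falls of the arginine transporter SLC7A2 (from 1544 and 1681 to 609 and 628, -1.38) and the taurine transporter SLC6A6 (from 752 and 848 to 293 and 269, -1.50). SLC7A2 was at 3064 and 3643 in shIMPA1 (log2 difference -2.43, limma adjusted p = 2.97e-08).

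Interferon-induced genes fell in 13 and rose in 4 of 31 cases, with a median of -0.23, 6 and 1 in every fit. The falls numbered 7 without shLuc library 1 and the rises 1 without shLuc library 2 and 2 without shIMPDH2 library 2. IFITM1, which blocks virus entry, went from 135 and 151 to 9.24 and 5.62 (-4.13), IFITM3 from 709 and 914 to 285 and 299 (-1.46) and IFITM2 from 286 and 329.9 to 98.2 and 128 (-1.45). IFITM1 could not be tested without either shLuc library. IFITM1, IFITM2 and IFITM3 are related neighbours, so some of their reads may be split between them. The GTPase GBP1 went from 122 and 142 to 27.7 and 38.2 (-1.98). Of 20 genes of antigen presentation and natural killer ligands 2 rose and 7 fell (4 without shLuc library 2 or shIMPDH2 library 2). The stress ligand MICB (from 223 and 238 to 93.6 and 108, -1.19) and the class I gene HLA-E (-0.61) fell.

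Some basal keratins appeared in both shIMPDH2 libraries, but also in 1 library of the other knockdown. Of 10 basal epithelial markers KRT5, KRT14 and KRT15 rose, NGFR fell from 90.0 and 83.1 to 27.7 and 31.5 (-1.52) and the other 6 were not called. Outside this list KRT13, a keratin of stratified epithelium chosen after its values were seen, fell from 16.2 and 14.9 to 0 and 0 and stood at 14.4 and 16.4 in shIMPA1. KRT5 was at 0.9 and 1.75 in the shLuc libraries and 79.7 and 84.4 in the shIMPDH2 libraries, and 0 and 88.9 in shIMPA1 libraries 1 and 2. From 3 reads in shLuc to 144 in shIMPDH2, its ratio was 61.9 (95% counting interval 20.7 to 302). KRT14 was at 0 and 0.875 in the shLuc libraries and 55.5 and 37.1 in the shIMPDH2 libraries, and 1.8 and 54.4 in shIMPA1. KRT6A went from 0 and 0 to 19.6 and 21.4 and was at 1.8 and 25 in shIMPA1, and the lung surfactant gene SFTPA2 from 0 and 0 to 34.7 and 41.6 and 1.8 and 31.1. In these genes the second shIMPA1 library resembled the shIMPDH2 libraries and the first resembled the controls. KRT5 and KRT14 lost their calls with all 6 libraries, and without either shIMPDH2 library they and KRT15 were not tested. KRT15 (from 0 and 3.5 to 49.7 and 76.5, 10.8 and 26.7 in shIMPA1) and MSMB (from 0 and 0 to 41.6 and 47.2, 2.69 and 12.9 in shIMPA1) showed the step less sharply. By a rule chosen after the values were seen (at most 3 in both shLuc libraries, at most 4 in shIMPA1 library 1 and at least 6 in the other 3 libraries), 7 genes had this pattern, and 0 had it with the shIMPA1 libraries exchanged. Because the limits were set from these same values, the 0 is no independent check. Among the 7, ADRA2A was at 79.7 and 49.5 in shIMPDH2 but only at 3.59 and 6.04 in shIMPA1. The summed value of KRT5 and KRT14 alone was 0.90 and 2.63 in shLuc, 135 and 121 in shIMPDH2, and 1.80 and 143 in shIMPA1. Over all 10 basal epithelial markers the sum hardly moved, at 1397.8 and 1428.1 in shLuc and 1403.6 and 1409.2 in shIMPDH2. Of 9 markers of other cultured lines, which share KRT5 with these, 4 rose and 4 fell (rises 2 without shIMPDH2 library 1 or shIMPDH2 library 2). Whether other cells or material from other libraries had a part in these values, and so in comparisons with shIMPA1, was not tested. KRT6A, SFTPA2 and MSMB were chosen after their values were seen, and KRT6A, KRT14 and SFTPA2 have close copies that can share reads.

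**Figure D5:**
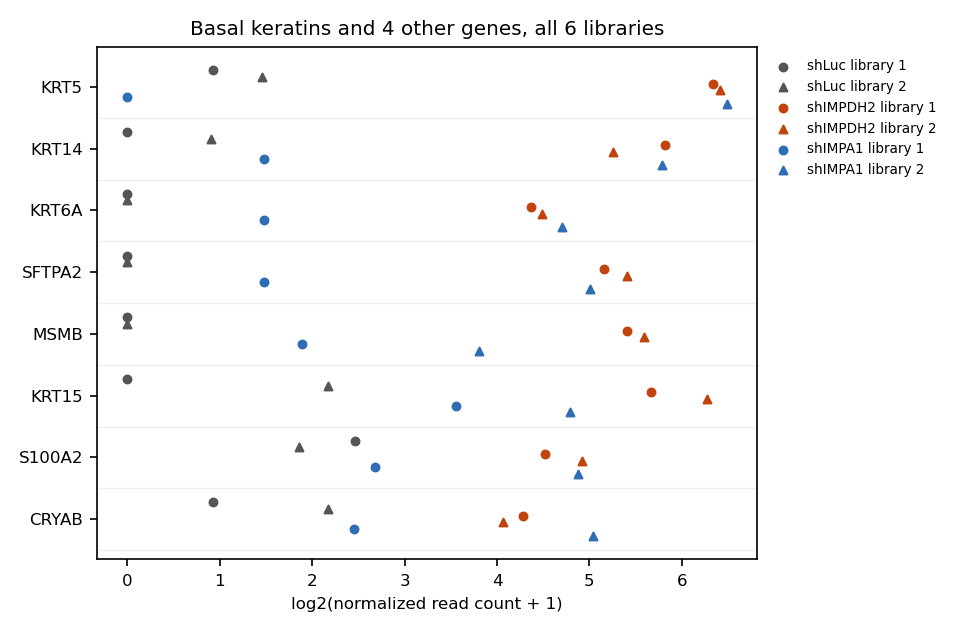
Basal keratins and 4 other genes in all 6 libraries on the log2(normalized read count + 1) scale (grey shLuc, orange shIMPDH2, blue shIMPA1; circles library 1, triangles library 2). In KRT5, KRT14, KRT6A and SFTPA2 the blue triangle lies with the orange points and the blue circle with the grey ones.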

How the data were processed

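Poly(A) RNA of 22RV1 lines was sequenced. Per the submitters' processing notes, the tools were Trimmomatic 0.36, STAR 2.5.2b, Subread 1.5.2 (featureCounts) and DESeq2, with GRCh38; per the labels' protocols, only unique reads in exons were counted. Whether counting used strand, and the annotation release, is not given in the sources used here. The deposited values are a signal, reads divided by 1 size factor per library: whole reads were recovered in 99.98% to 100% of values (within 0.05 reads). The authors' deposited fold changes (log2), p-values and adjusted p-values were not used.

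The test took genes that reached 10 in 2 or more of the 4 libraries (306 left out). It was run with limma 3.58.1 in R 4.3.3 on log2(value + 1), with a mean-variance trend, robust moderation and Benjamini-Hochberg adjustment over all genes tested, and no covariate, leaving 2 residual degrees of freedom. Tested on simulated data for this comparison (17505 genes), it called 60 of 66 genes changed 1.5-fold, 67 of 67 changed 2-fold and 7 of 17305 unchanged genes. The simulated noise followed the trend of variance with abundance exactly, and the changed genes were drawn from the more abundant ones. The simulation thus cannot show how many false calls arise where a gene's own spread departs from that trend. Alternatives were edgeR 4.0.16 and DESeq2 1.42.0 on the recovered reads, other scalings, pseudocounts and filters, no trend, no robust moderation, all 6 libraries, a block on the replicate number, and each library left out. The difference from shIMPA1 came from a limma fit of all 6 libraries. Depth is given with the libraries; with 2 libraries per group, small changes may be missed.

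Genes named were all guanine nucleotide genes tested; the 12 largest rises and falls among called genes with a mean of at least 1000 in the higher group and no overlap; called genes with 0 reads in 1 group and at least 100 in the other; and up to 5 members per list with the smallest adjusted p. The comparison, the rule and the lists were chosen with earlier results of these data known. Promoters came from a RefSeq table (GRCh38.p14), matched by symbol for 12205 genes tested. Cell markers and gene lists were taken by symbol from the deposited table. Of the 270 genes this rule gives, not all are described, and some are not reported here.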

Additional observations from a re-analysis of the deposited data

How the results depend on the processing

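The fall of IMPDH2 kept its call in every fit, with log2 fold changes from -0.72 to -0.49 as each library was left out. The number of genes called was the result that moved. From 6408 (3071 rose, 3337 fell), it went to 3200 (1287 and 1913) without a mean-variance trend and to 3175 (1509 and 1666) with all 6 libraries. DESeq2 called 2191 falls. Leaving out 1 library gave 1754 to 2517 rises and 2359 to 2717 falls. With a filter at 50, changes over 2-fold went from 406 to 229 rises and from 982 to 561 falls, with fewer genes tested. The cause of the other moves was not tested. The difference between shIMPDH2 and shIMPA1, 4623 genes, was 7086 without shIMPA1 replicate 1, 5566 without shIMPA1 replicate 2, 2019 without shIMPDH2 replicate 1 and 1598 without shIMPDH2 replicate 2, in fits chosen after seeing the data. Same-numbered libraries did not deviate together (correlation -0.06 over 2 pairs), so the numbers were not taken to pair them; a block on the replicate number called 2398 rises and 2880 falls. No result changed sign. Of 265 named genes called, 54 lost the call without the trend, 65 with all 6 libraries, 18 under the block, 10 with DESeq2 and 13 to 29 without 1 library. With 2 libraries a group, an absent call does not show that a gene did not change.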

Other observations

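Purinergic receptors and ectoenzymes, which sense or degrade extracellular nucleotides, had 7 of 30 members higher and 2 lower in shIMPDH2, with a median log2 fold change of 0.23, beside 17.5% and 19.1% of all genes tested. The rises were 4 without shLuc library 1 or shLuc library 2. The ADP receptor P2RY1 was at 216 and 221 in the shLuc libraries and 482 and 444 in the shIMPDH2 libraries. Both knockdown libraries lay above both controls (log2 fold change 1.08, SE 0.13), while shIMPA1 was below them at 49.4 and 47.5 (log2 difference 3.23, limma adjusted p = 3.43e-08). The ATP-gated channels P2RX6 (0.85) and P2RX4 (0.69) and the ectonucleotidase ENTPD2 (0.72) rose in every fit as well. Potassium and calcium channels were lower in 16 and higher in 4 of 31 cases (median -0.52), 10 and 3 in every fit. The regulatory subunit CACNG4 went from 104 and 143 to 18.5 and 20.2 (-2.59), and the potassium channels KCNC4 (from 43.2 and 39.4 to 173 and 159.7, 1.99) and KCNMA1 (from 296 and 302 to 801 and 634, 1.25) rose.

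Cell-adhesion cadherins fell in 10 and rose in 2 of 24 cases (median -0.31). CDH6 went from 697 and 719 to 156 and 119 (-2.37) and PCDH10 from 379 and 424 to 93.6 and 108 (-1.98). Among growth factors and receptor tyrosine kinases, 8 of 37 rose and 13 fell (8 without shLuc library 2). The ephrin receptor EPHA3 rose from 606 and 602 to 1451 and 1399 (1.24) and the hepatocyte growth factor receptor MET fell from 247 and 234 to 103 and 79.9 (-1.40). In the list of S100 and mucus-type genes, S100P rose from 518 and 398 to 1383 and 1639 (1.73) and stood much higher still in shIMPA1, at 10324 and 13718 (log2 difference -2.98, limma adjusted p = 6.01e-07), whereas the secretory-cell disulfide isomerase AGR2 fell from 1146 and 921 to 268 and 361 (-1.72). Enzymes of inositol and phosphoinositide metabolism were near the share of all genes, with 12 of 49 up and 10 down (rises 7 without shIMPDH2 library 1 or shIMPDH2 library 2, falls 6 without shLuc library 2 or shIMPDH2 library 1). INPP4B, a phosphoinositide phosphatase, fell (-1.07) and PLCB4 rose (0.70).

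Over 336 runs of 50 neighbouring tested genes, the median log2 fold change lay between -0.28 and 0.22. Chromosomes with fewer tested genes had no run: on chromosome Y 10 of 24 genes rose and 0 fell (median 0.39), and on M 0 of 33 rose and 13 fell (median -0.34). By class of transcript, 2823 of 13973 protein-coding genes rose and 2846 fell, while 15 of 406 processed pseudogenes rose and 55 fell, and 64 of 778 long intergenic RNAs rose and 126 fell. Processed pseudogenes share sequence with their parent genes, so their counts are uncertain.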
